A study of Sus scrofa with 11 samples.

Results

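The 4 genes of the heart's defence against oxidants, PRDX1, PRDX6, CAT and NFE2L2, were followed on every array, of 12217 genes that the array names. They were found as the probe sets with exactly 1 gene symbol in the platform annotation where that symbol was one of these names. The rule gave 5 of 27558 probe sets: 15301008 for PRDX1, 15332139 for PRDX6, 15262467 for CAT, and both 15236740 (brighter) and 15236751 (dimmer) for NFE2L2. All 5 passed the filter on low signal, and each lay among the brightest 10% of the table by mean signal. Values are the authors' normalized log2 signal, so a difference of 1 is a fold of 2.

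The tissue came from left ventricle of intact male Yorkshire pigs, in the ischemic zone behind an ameroid constrictor, a ring that slowly closes the left circumflex coronary artery. All 4 groups carried the constrictor. HFD+EV (3 arrays) ate a high fat diet and had extracellular vesicles (EV), particles that cells release, injected into the heart muscle, and HFD (2 arrays) ate the high fat diet and had vehicle injected. ND+EV (3 arrays) ate a normal diet and had EV injected, and ND (3 arrays) ate the normal diet and had vehicle injected. The diets ran for 12 weeks and tissue was taken 5 weeks after the injection. The labels give neither the pigs' age nor the cells that released the vesicles. Titles call the arrays of a group biological replicates, and no label ties an array to a pig, so the p-values measure the spread between these arrays.

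Peroxiredoxins reduce hydrogen peroxide and lipid peroxides. PRDX1 is a cytosolic member that thioredoxin recycles, and PRDX6 is the member with a single catalytic cysteine, which uses glutathione and also has phospholipase activity. Catalase, the product of CAT, splits hydrogen peroxide in peroxisomes. NFE2L2 (NRF2) is the transcription factor that switches on many antioxidant genes. KEAP1 holds it in the cytosol and presents it for degradation, and the autophagy receptor SQSTM1 (p62) can draw KEAP1 away. Heart muscle is rich in mitochondria, a source of superoxide and hydrogen peroxide.

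Cardiac muscle markers matched the tissue label. MYH7 ranged from 12.07 to 12.70 and MYL2 from 12.40 to 13.22 over the 11 arrays, while ALB, a liver marker, ranged from 3.37 to 3.98, around the filter's cutoff of 3.63. The red cell markers HBB (3.6 to 4.54), SLC4A1 (3.73 to 4.64) and EPB42 (3.63 to 4.30) all reached into the range of ALB, and ALAS2 did not pass the filter. The red cell values given below thus come from low signals. Arrays differed in the spread of their log2 signal. The SD over all probe sets was 1.507, 1.582 and 1.596 on HFD+EV replicates 1, 2 and 3, 1.593 and 1.624 on the HFD arrays, 1.499 to 1.544 in ND+EV, and 1.447, 1.514 and 1.469 on ND replicates 1, 2 and 3. ND replicates 1 and 3 stood apart, with mean correlations to the other arrays of 0.946 and 0.952, against 0.965 to 0.972 for the other 9.

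Of the 4 pairwise comparisons, HFD against ND had the largest median difference of the 4 genes (0.88, against -0.022 over all probe sets), and asks what the diet did without EV. All 4 genes were higher on both HFD arrays than on every ND array, by folds of 1.64 (PRDX1), 3.0 (PRDX6), 1.99 (CAT) and 1.69 (NFE2L2, brighter probe set). None passed the threshold of 0.05 after adjustment over all 20668 probe sets tested. In this comparison 0.735% of all probe sets passed, 24% had an unadjusted p below 0.05, and 13.6% were higher with such a p, as all 4 genes were. With no threshold, 47.5% of all probe sets were higher. The groups did not overlap, with HFD higher, at 19.4% of all probe sets.

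PRDX6 had log2 signals of 9.22 and 9.42 on the HFD arrays, against 6.89, 8.05 and 8.27 on the ND arrays. The groups were 0.95 apart at their nearest, and ND replicate 1 was far below the other ND arrays. The log2 fold change was 1.59 ± 0.38 (SE; 95% interval 0.74 to 2.43), with a limma adjusted p of 0.066. This fold change was at percentile 99.6 of all probe sets tested. PRDX6 passed without HFD+EV replicate 1 (1.59, adjusted p = 0.0425) or ND replicate 2 (1.74, 0.0435), and with the replicate number as a block (1.77, 0.0213). The numbers were not taken to pair the arrays, though 9 of 11 arrays correlated best with their own number.

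Catalase had signals of 7.58 and 7.31 in HFD, against 5.89, 6.83 and 6.64 in ND. Both HFD arrays were higher than every ND array, and ND replicate 1 was again the lowest. The log2 fold change was 0.99 ± 0.30 (interval 0.32 to 1.66, adjusted p = 0.095). PRDX1 had 7.15 and 7.48 in HFD, against 6.42, 6.51 and 6.86 in ND, a difference of 0.72 ± 0.19 (interval 0.29 to 1.14, adjusted p = 0.0778). The brighter NFE2L2 probe set had 8.58 and 8.90 in HFD, against 7.75, 8.22 and 7.98 in ND, a difference of 0.76 ± 0.22 (interval 0.27 to 1.25, adjusted p = 0.0859). Its dimmer probe set had 6.51 and 6.54 in HFD, against 5.79, 6.64 and 6.39 in ND. There the groups overlapped, and the difference was 0.25 ± 0.31 (adjusted p = 0.64). The files do not say which part of the transcript either probe set reads, and the difference between them was not tested.

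**Figure D1:**
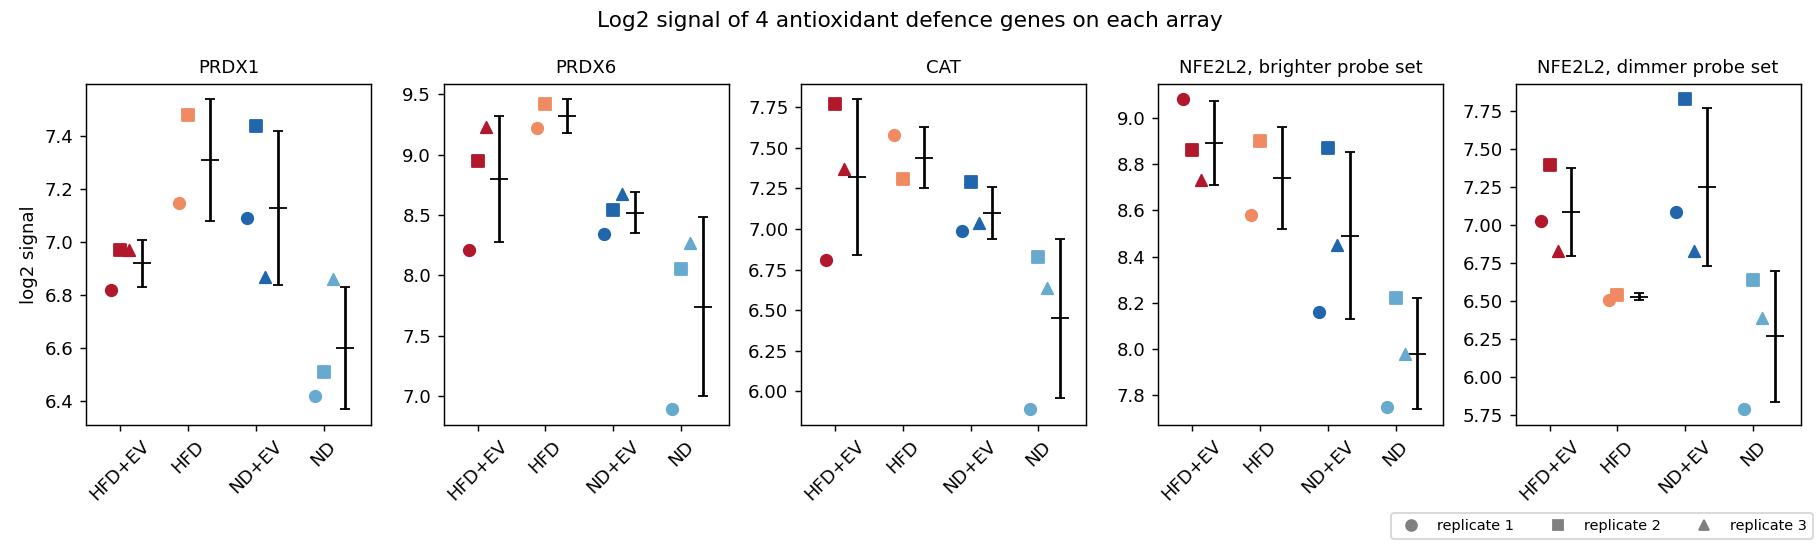
Log2 signal (y axis) of each probe set on every array, by group (x axis). Points are arrays, shaped by replicate number, and black bars give the mean ± SD of the group (n = 3, or 2 for HFD). ND holds the lowest mean in every panel, and ND replicate 1 is the lowest array in every panel.

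Bulk tissue cannot tell fewer cells of a type from less RNA per cell, and other quantities differed along with these genes. All 6 fibroblast markers tested of 7 listed were higher in HFD than in ND (median 0.88, 0 passed). Their mean level on an array, with each gene taken relative to its mean over all arrays, was 0.11 to 0.87 in HFD, against -1.03 to 0.17 in ND. Of 6 cardiac muscle markers 4 were higher (median 0.33), with such mean levels of 0.02 to 0.26 in HFD and -0.27 to 0.01 in ND. Smooth muscle and pericyte markers had a median of 0.50 (4 of 5 higher), endothelial markers 0.18 (4 of 5) and red cell markers -0.39 (0 of 3), and the macrophage, lymphocyte, adipocyte and hepatocyte lists had medians from -0.13 to 0.08. The part of any of these cells in the result was not tested. Bright probe sets as a class were also higher in HFD. The brightest 10% of the table, a class chosen after the data were seen that holds all the members, had a median log2 fold change of 0.36. Of them 76.9% were higher, and 34.5% were higher with an unadjusted p below 0.05. After quantile normalization, which gives every array the same spread, the 4 genes were still higher, with log2 fold changes of 1.31 (PRDX6, adjusted p = 0.104), 0.74 (CAT, 0.188), 0.44 (PRDX1, 0.215) and 0.38 (NFE2L2, 0.35). The PRDX1 and NFE2L2 values were thus smaller by more than 1.5 times. After cyclic loess the values were 1.17, 0.71, 0.44 and 0.35 in the same order.

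The related genes were read from 8 lists. In the peroxiredoxin and thioredoxin list 18 of 20 genes were tested, and 17 were higher in HFD than in ND, with a median log2 fold change of 0.46 against -0.022 over all probe sets. The brightest 10% of probe sets, which hold PRDX1 and PRDX6, had a median of 0.36, and 76.9% of them were higher. No gene of the list passed. The genes with the smallest p were GLRX3, a glutaredoxin that handles iron-sulphur clusters (0.68 ± 0.16, adjusted p = 0.0632), and the members PRDX6 and PRDX1. Thioredoxin itself, TXN, the protein that returns peroxiredoxins to their reduced form, had 6.91 and 7.88 in HFD, against 5.50, 6.54 and 6.38 in ND (1.25 ± 0.34, adjusted p = 0.0778).

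The other peroxiredoxins, named after their values were seen, were also higher in HFD, and none passed. PRDX3 of the mitochondrion had 9.45 and 9.68 in HFD, against 8.03, 8.81 and 8.83 in ND (1.01 ± 0.28, adjusted p = 0.0779). PRDX2, a cytosolic relative of PRDX1, differed by 0.71 ± 0.24 (0.112), PRDX4 of the endoplasmic reticulum by 0.60 ± 0.38 (0.355) and PRDX5, found in several compartments, by 0.40 ± 0.22 (0.292). All 6 peroxiredoxins were thus higher, with a median of 0.71, or 0.55 without ND replicate 1. ND replicate 1 was the lowest of all 11 arrays for PRDX1, PRDX2, PRDX3, PRDX5 and PRDX6, and second lowest for PRDX4 after HFD+EV replicate 1.

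Of the superoxide dismutase and catalase list, 3 of 5 genes were tested. SOD2, the mitochondrial superoxide dismutase, had 8.94 and 9.05 in HFD, against 7.04, 8.65 and 7.86 in ND, a log2 fold change of 1.14 ± 0.37 (SE; limma adjusted p = 0.108). CCS, which loads copper into SOD1, was on the lower side (-0.39 ± 0.20, adjusted p = 0.259). In the glutathione list 7 of 12 genes were higher (median 0.15, none passed), with the glutathione transferases GSTZ1 (0.77 ± 0.24) and GSTO1 (0.43 ± 0.16) and the glutathione reductase GSR (0.35 ± 0.14) at the smallest p. GSTO1 had signals of 3.76 to 4.15 in ND, which reach into the range of ALB.

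The regulators of NFE2L2 held the only gene of the lists that passed. SQSTM1 had 7.36 and 7.72 in HFD, against 6.03, 6.50 and 6.32 in ND, and rose by 1.26 ± 0.19 on the log2 scale (limma adjusted p = 0.0471). In all, 8 of 9 genes of this list, NFE2L2 itself included, were higher (median 0.47), among them the ubiquitin ligase scaffold CUL3 (0.65 ± 0.23, adjusted p = 0.134). The SQSTM1 call was close to the threshold and ended in 16 of 20 alternatives, with adjusted p up to 0.284. It held without HFD+EV replicate 1 (0.024) or ND replicate 2 (0.0236) and ended without any other single array (0.0553 to 0.263), while the log2 fold change stayed between 1.08 and 1.44.

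The targets of NFE2L2 as a list were split between both directions. Of 16 target genes tested (32 listed), 8 were higher and 8 lower in HFD, with a median of 0.02, close to the -0.022 of all probe sets, and none passed. TXN and PRDX1 were the listed targets with the smallest p. SQSTM1 was listed with the regulators and is not among these 16. SRXN1, which repairs overoxidised peroxiredoxins and is named after its value was seen, was at -0.12 ± 0.18. NQO1, a quinone reductase often used as a readout of NFE2L2, had signals of 3.62 to 4.02 over the 11 arrays, close to the range of ALB, so no difference is given for it. Of the enzymes that make oxidants 1 of 7 was higher (median -0.25). NCF4, a subunit of the phagocyte oxidase, differed by -0.56 ± 0.16 (adjusted p = 0.0854). The count also holds genes with signals near those of ALB, for which no difference is given here. Among them were the dual oxidase DUOX2 (3.38 to 4.05 over the 11 arrays), NOX4 (3.7 to 4.13) and NCF1 (3.43 to 4.48).

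Of the peroxisomal genes, where catalase works, 16 of 21 were higher in HFD, with a median of 0.13. PEX26, which anchors the import machinery, differed by 0.78 ± 0.24 (adjusted p = 0.0953). The fatty acid transporter ABCD2 had signals of 3.11 to 4.26 over the 11 arrays, on either side of the filter's cutoff, and no difference is given for it. Catalase had the smallest p of this list. The list for repair of oxidised protein and nucleotides had 4 of 7 higher (median 0.11), with PARK7 (0.60 ± 0.26) and the DNA glycosylases OGG1 (0.25 ± 0.11) and MUTYH (-0.42 ± 0.19) at the smallest p, and none passed. OGG1 (4.04 to 4.22 in ND) and MUTYH (4.07 to 4.17 in HFD) had signals little above those of ALB.

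**Figure D2:**
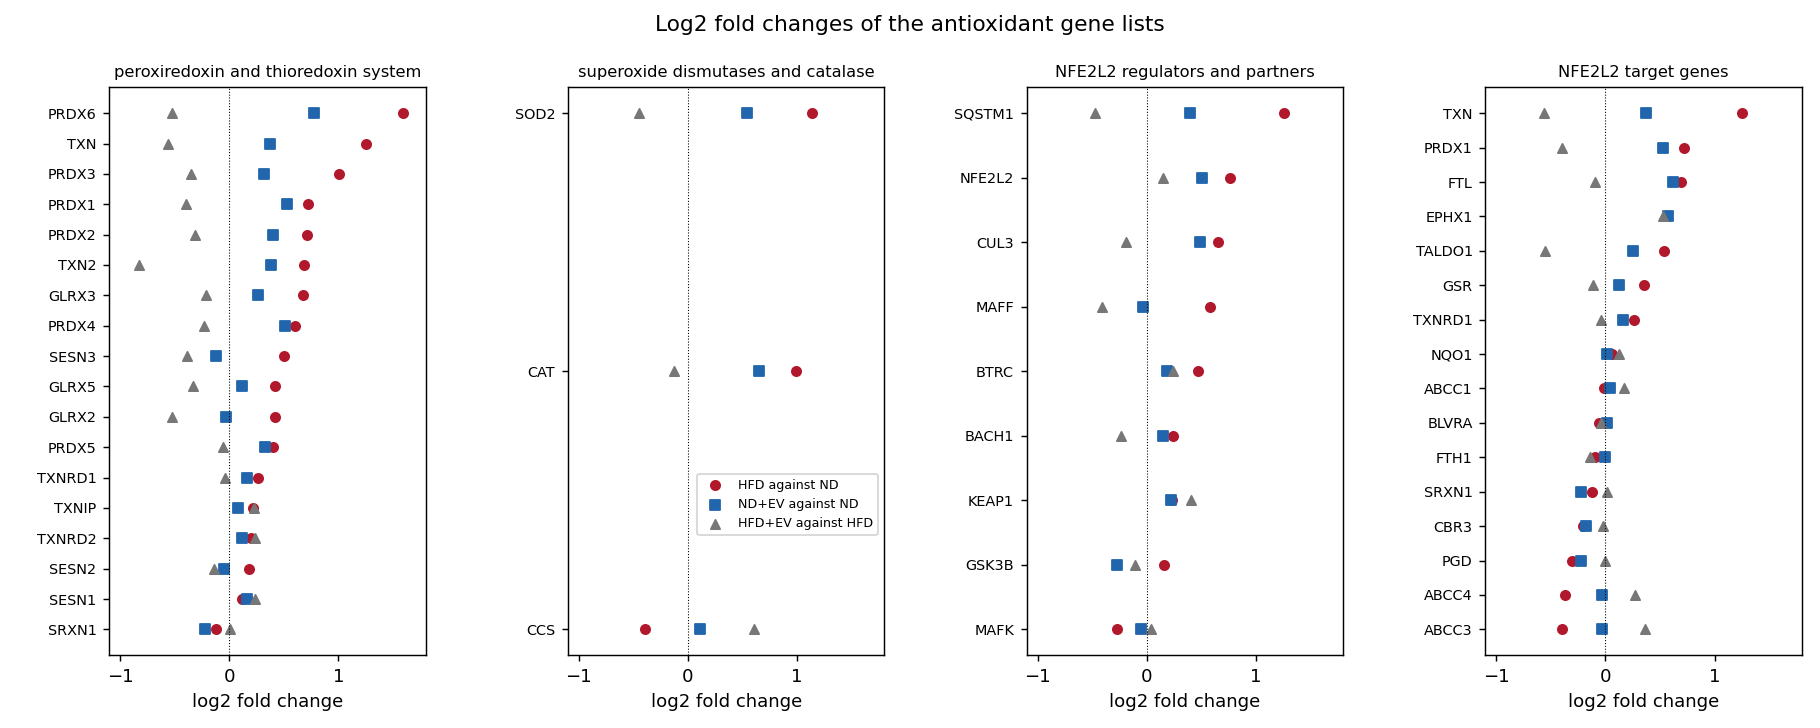
Log2 fold change (x axis) of each tested gene (rows) in 4 of the lists, for HFD against ND (circles), ND+EV against ND (squares) and HFD+EV against HFD (triangles). Circles of the peroxiredoxin and thioredoxin list lie right of 0 for 17 of 18 genes, those of the NFE2L2 targets for 8 of 16. The first 2 comparisons share the ND arrays.

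The second question was what EV did under the normal diet. All 4 genes had a higher mean in ND+EV than in ND, by folds of 1.45 (PRDX1), 1.72 (PRDX6), 1.57 (CAT) and 1.42 (NFE2L2, brighter probe set). None passed the adjusted threshold, which 0 of 20668 probe sets did with limma (0%), while 1758 (8.51%) had an unadjusted p below 0.05. All 4 genes were higher with an unadjusted p below 0.05, as were 4.97% of all probe sets, while 49.2% were higher with no threshold. Of the brightest 10% of probe sets, 14.4% were higher with such a p, and 67.3% with no threshold. This comparison uses the same ND arrays as the diet comparison.

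PRDX1 had 7.09, 7.44 and 6.87 in ND+EV, against 6.42, 6.51 and 6.86 in ND. The groups did not overlap, but the lowest ND+EV array and the highest ND array were almost level. The log2 fold change was 0.53 ± 0.17 (interval 0.15 to 0.92, adjusted p = 0.548). PRDX6 had 8.34, 8.54 and 8.67 in ND+EV, against 6.89, 8.05 and 8.27 in ND (0.78 ± 0.34, adjusted p = 0.58). CAT had 6.99, 7.29 and 7.04 in ND+EV, against 5.89, 6.83 and 6.64 in ND (0.65 ± 0.27, 0.574). For both genes every ND+EV array was above every ND array, by gaps of 0.06 and 0.16 at the nearest, from signals before rounding. The brighter NFE2L2 probe set had 8.16, 8.87 and 8.45 in ND+EV, which overlapped with ND (0.51 ± 0.20, adjusted p = 0.57). Groups that did not overlap, with ND+EV higher, were found at 6.32% of all probe sets, and for 3 of these 4.

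ND replicate 1 carried much of the size for PRDX6 (0.35 without it) and CAT (0.37 without it), and ND+EV replicate 2 for NFE2L2 (0.32 without it). After cyclic loess NFE2L2 was 0.30. Without ND replicate 1, 1 of the 4 genes had an unadjusted p below 0.05, PRDX1 (0.0424), and without ND+EV replicate 2 there were 0, the smallest being PRDX1 at 0.0526. Under cyclic loess, quantile normalization and array weights there were 2. The median log2 fold change of the 4 genes was 0.59, against 0.16 for the brightest 10% of probe sets and -0.005 for all. Fibroblast markers were higher for 6 of 6 here too (median 0.37), with mean levels relative to all arrays of -0.09 to 0.03 in ND+EV and -1.03 to 0.17 in ND. Macrophage markers were higher for 3 of 4 (median 0.27, with -0.09 to 0.28 in ND+EV and -0.29 to -0.04 in ND). Smooth muscle and pericyte markers were lower for 4 of 5 (median -0.29, with -0.36 to -0.12 in ND+EV and -0.57 to 0.27 in ND), and the other 6 marker lists had medians from -0.13 to 0.06. The part of these cells was not tested.

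The dimmer NFE2L2 probe set was at the top of the 5 in this comparison. It had 7.09, 7.83 and 6.83 in ND+EV, against 5.79, 6.64 and 6.39 in ND, all 3 higher. The log2 fold change was 0.98 ± 0.28 (interval 0.37 to 1.59), a fold of 1.97, with an unadjusted p of 0.0048 and a limma adjusted p of 0.539. Its fold change was higher than that of 99.4% of probe sets.

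In the peroxiredoxin and thioredoxin list 14 of 18 genes were higher in ND+EV (median 0.21) and all 6 peroxiredoxins (median 0.45). Without ND replicate 1 these medians were 0.14 and 0.26, and without ND replicates 1 and 3 they were 0.02 and 0.17. After cyclic loess the list's median was 0.11 (12 of 18 higher). TXN2, the mitochondrial thioredoxin, differed by 0.38 ± 0.20. Of the regulators 6 of 9 were higher, with CUL3 at 0.49 ± 0.21 and SQSTM1 at 0.40 ± 0.17, and of the NFE2L2 targets 10 of 16 (median 0.02), with the ferritin light chain FTL at 0.62 ± 0.33 and the epoxide hydrolase EPHX1 at 0.57 ± 0.31. SOD2 differed by 0.54 ± 0.33. Glutathione genes had 8 of 12 higher (median 0.09, GSTO1 0.33 ± 0.14, MGST3 0.46 ± 0.33) and peroxisomal genes 9 of 21 (median -0.04, PEX19 -0.39 ± 0.15, PEX7 -0.27 ± 0.14). Of the oxidant-producing enzymes 2 of 7 were higher (median -0.09, ALOX5 -0.33 ± 0.24). The repair list had 3 of 7 higher (median 0.00, MUTYH -0.35 ± 0.17). GSTO1 (3.76 to 4.15 in ND), PEX7 (3.73 to 4.06 in ND+EV) and MUTYH (3.89 to 4.40 in ND+EV) had signals that reached into the range of ALB. No gene of any list passed.

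Under the high fat diet the EV comparison had another shape. PRDX1, PRDX6 and CAT had lower means in HFD+EV than in HFD, and NFE2L2 a higher one. By limma 0 of the 20668 tested passed (0%), and 1146 (5.54%), none of the 4 genes among them, were below 0.05 before adjustment. Of all probe sets 49.5% were higher, and of the brightest 10% of them 35.8%, against 1 of the 4 genes. Smooth muscle and pericyte markers were lower for 4 of 5 (median -0.34), with mean levels relative to all arrays of -0.20 to 0.33 in HFD+EV and 0.14 to 0.62 in HFD. Fibroblast markers were lower for 6 of 6 (median -0.27), with mean levels of -0.25 to 0.50 in HFD+EV and 0.11 to 0.87 in HFD. Red cell markers were higher for 3 of 3 (median 0.18, with -0.10 to 0.10 in HFD+EV and -0.21 to -0.17 in HFD), and the other 6 marker lists had medians from -0.10 to 0.12. The part of these cells was not tested. PRDX1 had 6.82, 6.97 and 6.97 in HFD+EV, against 7.15 and 7.48 in HFD. All 3 were below both HFD arrays, as at 11% of all probe sets, with a difference of -0.40 ± 0.19 (interval -0.82 to 0.03, adjusted p = 0.904). Without HFD replicate 2 it was -0.23.

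PRDX6 had 8.21, 8.95 and 9.23 in HFD+EV, so that replicate 1 was low and replicate 3 level with HFD (-0.52 ± 0.38, interval -1.37 to 0.32, or -0.23 without HFD+EV replicate 1). CAT had 6.81, 7.77 and 7.37 in HFD+EV, on either side of HFD (-0.13 ± 0.30, interval -0.80 to 0.55, and 0.13 without HFD+EV replicate 1). NFE2L2 had 9.08, 8.86 and 8.73 in HFD+EV by its brighter probe set (0.15 ± 0.22, interval -0.34 to 0.64). It was -0.01 without HFD replicate 1, 0.05 without HFD+EV replicate 1, 0.26 after cyclic loess and 0.29 after quantile normalization. On HFD+EV replicate 1 PRDX1, PRDX6 and CAT were thus the lowest of their group, while NFE2L2 by this probe set was the highest of all 11 arrays. The dimmer NFE2L2 probe set had 7.03, 7.40 and 6.83 in HFD+EV, above both HFD arrays as at 12.2% of all probe sets (0.56 ± 0.31, adjusted p = 0.908).

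Of the peroxiredoxin and thioredoxin list, 4 of 18 genes were higher in HFD+EV than in HFD (median -0.27). The median was -0.14 without HFD+EV replicate 1 and -0.15 without HFD replicate 2. TXN2 averaged 6.83 ± 0.066 over the 3 HFD+EV arrays and 7.66 ± 0.31 over the 2 HFD arrays (SD), a log2 fold change of -0.83 ± 0.22 (SE; limma adjusted p = 0.623), and the mitochondrial glutaredoxin GLRX2 differed by -0.52 ± 0.18. SQSTM1 differed by -0.47 ± 0.19, and the small Maf protein MAFF, a DNA-binding partner of NFE2L2, by -0.41 ± 0.22. CCS was on the higher side (0.61 ± 0.20, adjusted p = 0.773). OGG1, which removes oxidised guanine from DNA, differed by -0.48 ± 0.11 (adjusted p = 0.564), but its signals of 3.87 to 3.96 in HFD+EV lay within the range of ALB. The NFE2L2 targets had 6 of 16 higher (median -0.03, TALDO1 -0.55 ± 0.31, TXN -0.56 ± 0.34), the glutathione list 4 of 12 (-0.07, GPX8 -0.26 ± 0.12), the oxidant-producing enzymes 5 of 7 (0.04), the peroxisomal list 11 of 21 (0.02) and the repair list 2 of 7 (-0.11). No gene of any list passed.

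The difference of the EV effects (high fat minus normal diet) asks whether EV acted differently under the 2 diets. All 4 genes had a lower EV effect under the high fat diet, while 50.2% of all probe sets, and 29.4% of the brightest 10%, had a higher one. The PRDX1 effect was -0.40 under the high fat diet and 0.53 under the normal diet, a difference of -0.93 ± 0.26 (interval -1.50 to -0.35, unadjusted p = 0.00464, limma adjusted p = 0.572). PRDX6 differed by -1.30 ± 0.51 (interval -2.44 to -0.17), CAT by -0.78 ± 0.41 (-1.68 to 0.12) and NFE2L2 by -0.36 ± 0.30 (-1.02 to 0.30) with its brighter and -0.42 ± 0.41 with its dimmer probe set. An unadjusted p below 0.05 was found for PRDX1 and PRDX6, and at 8.42% of all probe sets, of which 0 (0%) passed after adjustment. CAT was -0.50 without ND replicate 1. NFE2L2 was -0.17 without ND+EV replicate 2, -0.04 after cyclic loess and -0.06 after quantile normalization. TXN2 differed by -1.21, and 14 of 18 genes of its list were lower (median -0.46, or -0.29 after cyclic loess and -0.28 without ND replicates 1 and 3). The brightest 10% of probe sets had a median of -0.25. Fibroblast markers had a lower EV effect under the high fat diet for 6 of 6 (median -0.68), beside a median of -0.85 for the 4 genes. Red cell markers had a higher one for 3 of 3 (0.25), and the other 7 marker lists had medians from -0.19 to 0.12. The part of these cells was not tested.

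**Figure D3:**
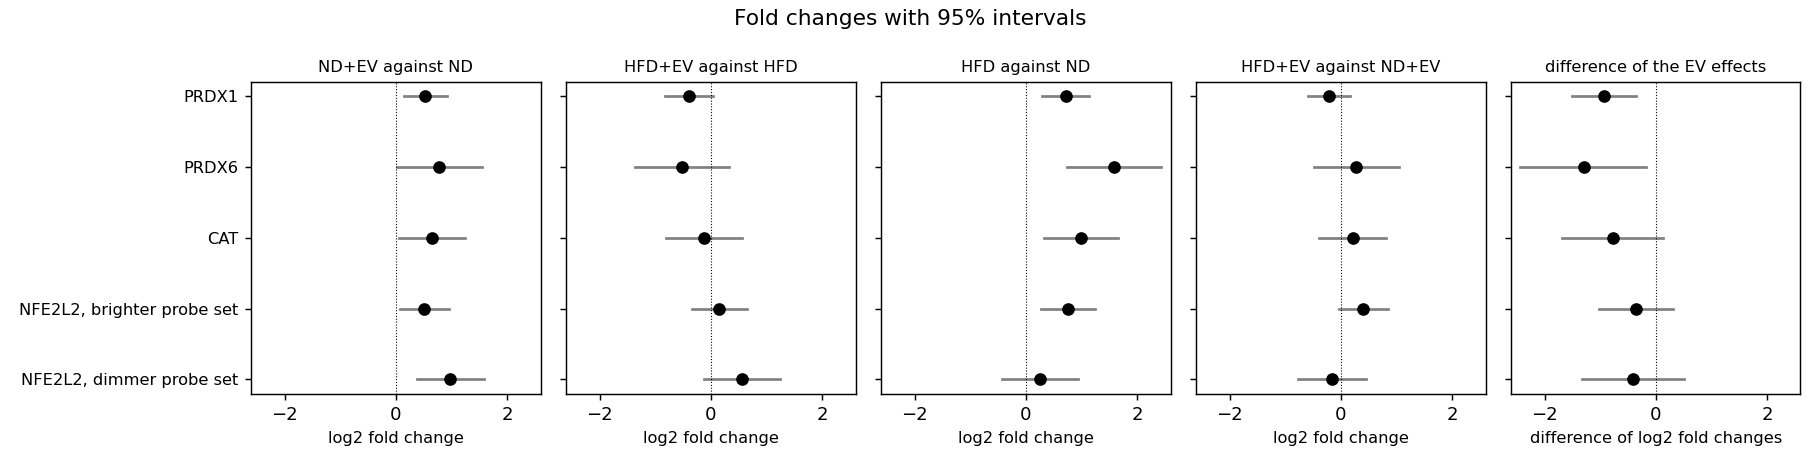
Log2 fold change (x axis; for the last panel the difference of the EV effects, high fat minus normal diet) of the 5 probe sets (rows). Points are limma estimates and lines 95% intervals, not adjusted for multiple tests. Intervals exclude 0 for 4 of 5 probe sets in HFD against ND and for all 5 in ND+EV against ND, and for none in HFD+EV against HFD or HFD+EV against ND+EV.

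In hearts injected with EV, the diet groups overlapped for all 4 genes. HFD+EV against ND+EV gave -0.21 ± 0.17 for PRDX1, 0.28 ± 0.34 for PRDX6 and 0.21 ± 0.27 for CAT. The brighter NFE2L2 probe set was at 0.40 ± 0.20 (interval -0.04 to 0.84, limma adjusted p = 0.699). The dimmer one was on the lower side, at -0.16 ± 0.28 (interval -0.77 to 0.45, adjusted p = 0.904). By limma 0 of the 20668 tested passed (0%), and 1522 (7.36%) were below 0.05 before adjustment, with none of the 4 genes among them. A higher mean in HFD+EV was found for 3 of the 4 genes (NFE2L2 by its brighter probe set), 48.8% of all probe sets and 63.1% of the brightest 10%. Without any 1 array the values ran from -0.34 to -0.06 for PRDX1, 0.07 to 0.57 for PRDX6, -0.01 to 0.47 for CAT and 0.23 to 0.59 for NFE2L2. SQSTM1 had 6.74, 7.23 and 7.23 in HFD+EV, against 6.66, 6.72 and 6.67 in ND+EV, a log2 fold change of 0.38 ± 0.17 (SE; limma adjusted p = 0.676). Its arrays did not overlap, as at 7.58% of all probe sets with HFD+EV higher, but the nearest, 6.74 and 6.72, were almost level. KEAP1 (0.42 ± 0.20) and BTRC, a further ubiquitin ligase component (0.52 ± 0.23), had the next smallest p of the regulators, of which 6 of 9 were higher (median 0.32). TXN2 was on the lower side (-0.52 ± 0.20), TXNRD2, the mitochondrial thioredoxin reductase (0.32 ± 0.13), and the thioredoxin inhibitor TXNIP (0.36 ± 0.17) on the higher. Other lists had medians between -0.13 (oxidant-producing enzymes, NCF4 -0.29 ± 0.15) and 0.16 (superoxide dismutases and catalase), with PEX7 (0.39 ± 0.14) at the smallest p of the peroxisomal genes. PEX7 had signals of 3.73 to 4.06 in ND+EV, which reach into the range of ALB. Higher in HFD+EV were also 5 of 5 smooth muscle and pericyte markers (median 0.37), 6 of 6 fibroblast markers (0.17) and 6 of 6 cardiac muscle markers (0.15). Endothelial markers had a median of 0.21 (4 of 5 higher), lymphocyte markers 0.14 (4 of 5) and red cell markers -0.15 (1 of 3). The macrophage, adipocyte and hepatocyte lists had medians from -0.03 to 0. The part of these cells was not tested.

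Averaged over both injections, the mean diet effect was 0.93 ± 0.26 for PRDX6 (limma adjusted p = 0.076) and 0.60 ± 0.20 for CAT (0.115). It was 0.58 ± 0.15 for the brighter NFE2L2 probe set (0.0677) and 0.25 ± 0.13 for PRDX1 (0.252). The dimmer NFE2L2 probe set was at 0.05 ± 0.21 (interval -0.41 to 0.50, adjusted p = 0.903). None passed, against 1.17% of all probe sets. All 4 genes, NFE2L2 by its brighter probe set, were higher, as were 47.4% of all probe sets. An unadjusted p below 0.05 was found for 3 of these 4, and for 13.7% of all probe sets with the same direction (24.7% in either direction). Of the brightest 10% of probe sets, 75.4% were higher, and 32.7% were higher with such a p. Without HFD+EV replicate 1, PRDX6 (1.08, adjusted p = 0.0351) and CAT (0.73, 0.0475) passed, and without ND replicate 2, NFE2L2 (0.64, 0.0425). With the replicate number as a block PRDX6 (1.03, 0.0204) and NFE2L2 (0.56, 0.0482) passed. Fibroblast markers were also higher under the high fat diet for 6 of 6 (median 0.51) and smooth muscle and pericyte markers for 5 of 5 (0.40). Cardiac muscle markers were higher for 5 of 6 (0.23) and endothelial markers for 4 of 5 (0.19), while red cell markers had a median of -0.27. The macrophage, lymphocyte, adipocyte and hepatocyte lists had medians from -0.07 to 0.06. The part of these cells was not tested. After cyclic loess PRDX1 was at 0.06 and NFE2L2 at 0.33, and after quantile normalization they were at 0.06 and 0.36. The groups of 3 and 2 arrays allow no exact permutation p below 0.1. An exact two-sided permutation test compared the 5 high fat with the 6 normal diet arrays. Its p was 0.0281 for PRDX6, 0.039 for CAT, 0.0195 for the brighter NFE2L2 probe set and 0.312 for PRDX1. After adjustment over 30 such tests it was 0.231 for the first 3 and 0.446 for PRDX1. For the dimmer NFE2L2 probe set the test gave 0.781, or 0.808 after adjustment. SQSTM1 rose in the mean diet effect as well (0.82 ± 0.13, limma adjusted p = 0.0461). Its 5 high fat arrays were all above its 6 normal diet arrays, as at 1.61% of all probe sets. The nearest, HFD+EV replicate 1 (6.74) and ND+EV replicate 2 (6.72), were almost level. The SQSTM1 call ended in 14 of 19 alternatives. It held without HFD+EV replicate 1 (0.0159) or ND replicate 2 (0.0247), and ended without any other single array (0.0525 to 0.182).

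In the mean EV effect, averaged over both diets, the dimmer NFE2L2 probe set was the member with the smallest p. It had signals from 6.83 to 7.83 on the 6 EV arrays, against 5.79 to 6.64 on the 5 vehicle arrays, so that every EV array was above every vehicle array, as at 0.14% of all probe sets. Its mean EV effect was 0.77 ± 0.21 (interval 0.31 to 1.23), rank 83 by p of 20668, with a limma adjusted p of 0.855. The exact two-sided permutation p was 0.00216, the smallest that 6 against 5 arrays allow, and 0.0648 after adjustment over 30 tests. The gap of 0.20 shrank to 0.05 after cyclic loess and after quantile normalization, and the arrays still did not overlap. The brighter probe set had 8.16 to 9.08 on EV arrays and 7.75 to 8.90 on vehicle arrays, which overlapped (0.33 ± 0.15, adjusted p = 0.917). PRDX1 (0.07 ± 0.13), PRDX6 (0.13 ± 0.26) and CAT (0.26 ± 0.20) had intervals that held 0. All 4 genes were higher, as were 50.3% of all probe sets, and 1 of them, NFE2L2, with an unadjusted p below 0.05 (0.0488), as were 2.67%. Of the brightest 10% of probe sets, 57.8% were higher, and 3.92% were higher with such a p. In this effect limma passed 0 of 20668 (0%), with 1120 (5.42%) below 0.05 before adjustment. Smooth muscle and pericyte markers were lower with EV for 5 of 5 (median -0.21), macrophage markers had a median of 0.18 and fibroblast markers of -0.10, and their part was not tested.

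Ordered by mean level, PRDX6 ran 9.32 ± 0.14 in HFD, 8.80 ± 0.52 in HFD+EV, 8.52 ± 0.17 in ND+EV and 7.74 ± 0.74 in ND, as means ± SD of 3 arrays or, for HFD, 2. CAT kept this order, with 7.44 ± 0.19, 7.32 ± 0.48, 7.10 ± 0.16 and 6.45 ± 0.49. PRDX1 ran 7.31 ± 0.23 in HFD, 7.13 ± 0.29 in ND+EV, 6.92 ± 0.087 in HFD+EV and 6.60 ± 0.23 in ND. The brighter NFE2L2 probe set ran 8.89 ± 0.18 in HFD+EV, 8.74 ± 0.22 in HFD, 8.49 ± 0.36 in ND+EV and 7.98 ± 0.24 in ND. The dimmer one ran 7.25 ± 0.52 in ND+EV, 7.09 ± 0.29 in HFD+EV, 6.53 ± 0.022 in HFD and 6.27 ± 0.43 in ND. ND was the lowest in all 5 orders. Neighbours in these orders overlapped on their arrays except ND+EV and ND for PRDX6 and CAT, and HFD+EV and HFD for the dimmer NFE2L2 probe set.

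PRDX6 and CAT were correlated over the 11 arrays (Pearson r = 0.907, Spearman rho = 0.864, permutation p = 0.00044 and 0.001, adjusted 0.0015 and 0.01 over 10 relations). Without ND replicate 1 and HFD replicate 2 r was 0.844 (adjusted p = 0.02), and on deviations from the group means it was 0.797. The permutations shuffled arrays across the 4 groups, so this and the following p-values also take in differences between groups. No p was computed for the deviations, nor the share of all genes with such an r. PRDX1 correlated with PRDX6 at r = 0.744 and rho = 0.802 (permutation p = 0.0081 and 0.0046, adjusted 0.019 and 0.012), and without the same arrays at 0.436 (adjusted p = 0.31). The call by Pearson's r thus depends on these 2 arrays, without which fewer arrays and a narrower range are left. PRDX1 and CAT had r = 0.684 and rho = 0.711 (permutation p = 0.02 and 0.017, adjusted 0.023 and 0.033), and 0.503 without the same arrays (adjusted p = 0.26). NFE2L2 correlated with PRDX1 at r = 0.609 (permutation p = 0.048, adjusted 0.048), with PRDX6 at 0.683 (0.016, adjusted 0.023) and with CAT at 0.723 (0.0094, adjusted 0.019). Its rho values were 0.497, 0.509 and 0.518 (permutation p = 0.12, 0.11 and 0.11, adjusted 0.12 each). Without 2 arrays its r was 0.327, 0.367 and 0.483 (adjusted p = 0.40, 0.36 and 0.26), so these calls depend on those arrays too, which for CAT were ND replicate 1 and HFD+EV replicate 2. On deviations from group means the 5 weaker relations had r between 0.192 and 0.470.

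The spread of the whole array went with the same genes, which all lie among the brightest 10% of probe sets. Array medians were nearly level (4.36 to 4.48), so any bright probe set can read higher on an array with a wider spread. The share of other bright probe sets that correlated with the SD was not computed. The p-values below thus do not show a relation particular to these genes. The SD of an array's log2 signal correlated with PRDX6 at r = 0.887 (rho = 0.809, permutation p = 1e-04 and 0.0037, adjusted 0.001 and 0.012) and with CAT at r = 0.854 (rho = 0.827, permutation p = 0.00046 and 0.0026, adjusted 0.0015 and 0.012). Both held without HFD replicate 2 and HFD+EV replicate 3 (0.834 and 0.934) and on deviations from group means (0.703 and 0.756). For NFE2L2 (r = 0.720, rho = 0.691, permutation p = 0.015 and 0.023, adjusted 0.023 and 0.033) and PRDX1 (r = 0.684, rho = 0.692, permutation p = 0.021 for both, adjusted 0.023 and 0.033) the relation did not pass without those 2 arrays (0.688 and 0.610, adjusted p = 0.11 and 0.16), and on deviations from group means r was 0.316 and 0.500.

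**Figure D4:**
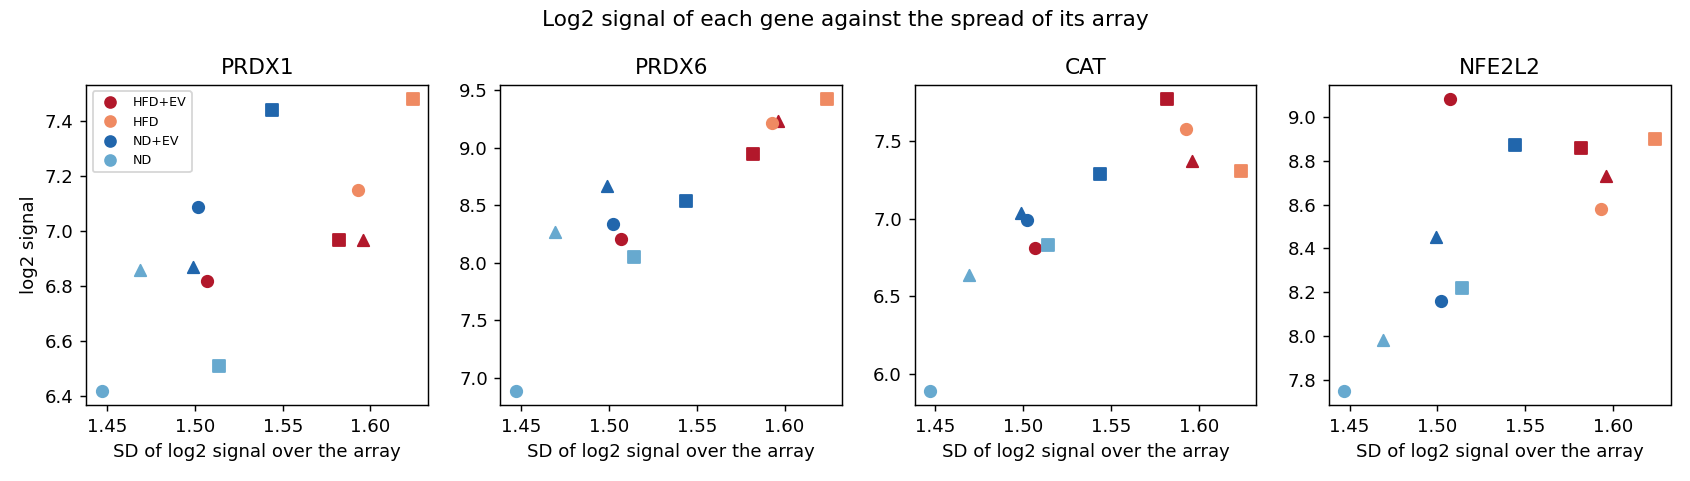
Log2 signal of each gene (y axis; NFE2L2 by its brighter probe set) against the SD of log2 signal over all probe sets of the same array (x axis). Points are the 11 arrays, coloured by group and shaped by replicate number as in the plot of signal by group. ND replicate 1 sits at the lower left of each panel (SD 1.447), and HFD replicate 2 has the largest SD (1.624).

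Over the same 11 arrays, the genes most like each of the 4 were taken by Pearson's r among 9734 genes, as a description. The points share the group structure and the spread of the arrays. For PRDX6 they were GOT2, the mitochondrial aspartate aminotransferase (0.987), CNOT9 of the deadenylase complex (0.985), the amino acid sensing GTPase RRAGA (0.983), the lysosomal protease CTSA (0.979) and the ufmylation enzyme UFC1 (0.979). For CAT they were NDUFB11 of respiratory complex I (0.984, with a Spearman rho of 1), UBL5 (0.981), LOC100156967 (0.979), GHITM of the inner mitochondrial membrane (0.974) and phospholamban, PLN, the brake on the calcium pump of heart muscle (0.972). For PRDX1 they were SRP14 of the signal recognition particle (0.919), PRSS23 (0.916), DAZAP2 (0.891), the proton pump subunit ATP6V1F (0.890) and the tubulin cofactor TBCA (0.880). For NFE2L2 they were TMEM167A (0.978), MGEA5, the enzyme that removes O-GlcNAc (0.928), AZI2 (0.907), the translation factor EIF5B (0.906) and TARSL2 (0.898). On deviations from group means these values lay between 0.948 and 0.987 for the genes named beside PRDX6 and CAT, and between 0.722 and 0.929 for those named beside PRDX1 and NFE2L2.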

How the data were processed

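Signal per probe set was measured on 11 Affymetrix whole-transcript arrays from 50 ng of total RNA, per the labels' protocols. The authors deposited normalized log2 values, one per probe set and array. Transcriptome Analysis Console is the only software in the submitters' processing notes, and no version of it is stated. For the normalization, the summary method, the build and any detection calls, nothing is stated in the labels or the table.

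Groups came from the sample titles. Members and gene lists were chosen with earlier results of these data known. Of the probe sets, 13157 had 1 symbol, 523 several and 13878 none. Gene IDs linked 12841 of them to a RefSeq gene table, and 7 symbols were updated. The 25% with the lowest mean signal were left out, leaving 20668. A gene was read from its brightest probe set. The 4 group means were fitted with limma 3.58.1 (R 4.3.3, lmFit and eBayes, 7 residual and 3.62 prior degrees of freedom). Tests were two-sided in 7 contrasts, and p-values were adjusted by Benjamini and Hochberg's method across the whole table that passed the filter. Named genes were the members, the 3 genes of each list with the smallest p in each pairwise contrast, list genes that passed, and the 5 genes most correlated with each member. Correlations used 100000 permutations, which shuffled the arrays across groups. The fit was tested on simulated data. Alternatives were other filters, cyclic loess, quantile normalization, array weights, trend and robust, a replicate block, only the groups compared, the mean over NFE2L2 probe sets, and arrays left out. The number of arrays limits the precision. No batch is labelled. Gene sequences and coordinates were not used here.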

Additional observations from a re-analysis of the deposited data

Results flagged for a closer look

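PRDX1 was the member whose EV and vehicle arrays lay in opposite order in the 2 diets. All 3 HFD+EV arrays (6.82 to 6.97) were below both HFD arrays (7.15 and 7.48), as at 11% of all probe sets. All 3 ND+EV arrays (6.87 to 7.44) were above the ND arrays (6.42 to 6.86), as at 6.32%, but the nearest arrays, 6.87 and 6.86, were almost level. The share of probe sets with both was not computed. The difference of the EV effects was -0.93 on the log2 scale, and its test over all probe sets did not pass (limma adjusted p = 0.572).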

How the results depend on the processing

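Without any 1 array, the members kept their direction in HFD against ND (PRDX1 0.55 to 0.88, PRDX6 1.16 to 1.85, CAT 0.71 to 1.18, NFE2L2 0.60 to 0.92), in ND+EV against ND (0.38 to 0.67, 0.35 to 1.05, 0.37 to 0.84, 0.32 to 0.68) and in the difference of the EV effects (-1.09 to -0.77, -1.57 to -0.88, -1.0 to -0.50, -0.53 to -0.17). In HFD+EV against HFD CAT ran from -0.35 to 0.13 (0.04 with array weights) and NFE2L2 from -0.01 to 0.31; in HFD+EV against ND+EV CAT ran from -0.01 to 0.47. In the mean diet effect PRDX6 ran from 0.72 to 1.08, CAT from 0.46 to 0.73 and NFE2L2 from 0.50 to 0.68. In the mean EV effect PRDX1 ran from -0.01 to 0.15 and PRDX6 from -0.09 to 0.27 (-0.03 without ND replicates 1 and 3, where the lone ND array is assumed to vary like the others); SQSTM1 ran from -0.13 to 0.05 (0.00 after quantile normalization). The dimmer NFE2L2 probe set turned sign in HFD against ND after cyclic loess (0.00) and without ND replicates 1 and 3 (-0.11). In the mean diet effect it was -0.13 after cyclic loess, -0.11 after quantile normalization, 0.00 with the replicate block, -0.14 without ND replicates 1 and 3, and -0.07 to 0.19 without any 1 array. In HFD+EV against ND+EV it was -0.37 to 0.13.

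PRDX6 passed in HFD against ND with the replicate block (1.77). In the mean diet effect PRDX6 (1.03) and NFE2L2 (0.56) passed with the replicate block, and with array weights (0.99 and 0.54). The block changed no other call of a member. Deviations of same-numbered arrays correlated at -0.10 to 0.33 over 15 pairs, with 4 over 0.1, so the numbers were not taken to pair the arrays. As a hint from the data, 9 of 11 arrays correlated best with their own number.

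The 152 probe sets called in HFD against ND became 0 without the filter, after cyclic loess or quantile normalization, with only the groups compared, with array weights, with trend and robust, and without ND replicates 1 and 3. They became 938 with the replicate block, and 0 to 1356 without any 1 array. The 242 of the mean diet effect became 463 with the lowest 50% left out, 1665 with array weights, 985 with the replicate block, 0 to 1399 without any 1 array, and 0 under each other setting run. HFD+EV against ND+EV had 10 with array weights and 2 without ND replicates 1 and 3 (0 to 2 without any 1 array); the other comparisons had 0 to 2. The cause was not tested.

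Without the 2 arrays farthest from the median, correlations fell below the threshold for PRDX1 with PRDX6 (0.436), CAT (0.503) and NFE2L2 (0.327), for NFE2L2 with PRDX6 (0.367) and CAT (0.483), and for the array SD with PRDX1 (0.610) and NFE2L2 (0.688).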
